A study of Mus musculus with 8 samples.

Results

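The genes described here are 10 cytokine receptor genes, Il21r, Il2rg, Il4ra, Il7r, Il6ra, Il12rb1, Il10ra, Il10rb, Ifngr1 and Ifngr2, taken by symbol from the 54532 genes of the count table. They were gathered around the lower Il21r level in Gsdmd-/- macrophages, so they were chosen by their CPM in WT against Gsdmd-/- libraries, and that difference is given below as a description, with no p for any of them. The name type I receptor covers only 6 of them. Il21r, Il2rg, Il4ra, Il7r, Il6ra and Il12rb1 encode chains of that class, while Il10ra, Il10rb, Ifngr1 and Ifngr2 encode chains of the class II (interferon and IL-10) family, and Il2rg, the common gamma chain, pairs with the products of only 3 of the other genes, Il21r, Il4ra and Il7r. All 10 passed the filter on low counts, which left 12911 genes.

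The study sequenced RNA of untreated bone marrow-derived macrophages (BMDMs), grown from marrow cells for 6 days with macrophage colony-stimulating factor, in 4 WT and 4 Gsdmd-/- libraries. The cultures were described as coming from female C57BL/6J mice aged 6 to 8 weeks. Gsdmd, which encodes the pore-forming protein of pyroptosis, was knocked out in the Gsdmd-/- mice, a donated line kept in a university facility, whereas WT mice were purchased. Genotype and colony therefore cannot be told apart, and which part of Gsdmd was deleted is not given in the sources used here. Nor is it stated that each library came from a separate mouse, so the errors and p-values measure the spread between these libraries, which may be technical.

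Cytokine receptors of both classes have no kinase of their own. Binding of a cytokine brings 2 chains or more together, the Janus kinases (JAKs) held on their inner tails phosphorylate them, and STAT transcription factors dock, are phosphorylated and move to the nucleus. One chain is usually private to a cytokine and the other is shared, so the level of each chain can bear on which cytokines a cell senses. In macrophages, IL-4 acts through Il4ra and STAT6 on alternative activation, IL-10 acts through Il10ra and STAT3 to restrain inflammatory genes, and interferon gamma acts through Ifngr1 and Ifngr2 to induce antigen presentation.

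The promoters of Il21r and Il4ra are shown because both genes were lower in Gsdmd-/- macrophages and lie side by side on chromosome 7, and that of Ifngr2 because it alone of the 7 promoters found held a STAT6-type site. The sequences are from RefSeq on GRCm38.p6, 5' to 3' on the plus strand, from 250 bases before to 50 bases after the annotated start. They cover chr7:125603179-125603478 for Il21r, chr7:125552021-125552320 for Il4ra and chr16:91546809-91547108 for Ifngr2. Capitals mark a match to a searched motif, GGGCGG (a site of SP factors) in all 3 and TTC and GAA with 4 bases between them (a STAT6-type site) in Ifngr2.
Il21r: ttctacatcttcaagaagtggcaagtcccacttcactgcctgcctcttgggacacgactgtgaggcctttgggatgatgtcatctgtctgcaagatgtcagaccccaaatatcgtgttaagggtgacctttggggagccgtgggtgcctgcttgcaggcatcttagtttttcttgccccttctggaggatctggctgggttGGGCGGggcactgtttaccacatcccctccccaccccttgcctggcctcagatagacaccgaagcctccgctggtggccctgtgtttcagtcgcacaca
Il4ra: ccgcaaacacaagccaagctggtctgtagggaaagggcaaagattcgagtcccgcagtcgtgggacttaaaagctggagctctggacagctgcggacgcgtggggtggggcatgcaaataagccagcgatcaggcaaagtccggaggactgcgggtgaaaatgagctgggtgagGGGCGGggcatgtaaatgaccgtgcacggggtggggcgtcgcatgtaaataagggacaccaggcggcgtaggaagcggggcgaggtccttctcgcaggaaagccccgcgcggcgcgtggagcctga
Ifngr2: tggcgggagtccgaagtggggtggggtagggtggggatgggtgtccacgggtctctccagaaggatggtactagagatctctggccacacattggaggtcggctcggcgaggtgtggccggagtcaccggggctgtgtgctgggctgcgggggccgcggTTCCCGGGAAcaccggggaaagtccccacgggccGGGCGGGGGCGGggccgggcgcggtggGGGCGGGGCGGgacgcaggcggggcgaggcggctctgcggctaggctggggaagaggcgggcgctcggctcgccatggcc

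A promoter was found for 7 of the 10 genes (Il21r, Il2rg, Il4ra, Il7r, Il6ra, Ifngr1 and Ifngr2). Both strands were searched, and a share of all 32851 promoters in the table is given for each motif. The SP site GGGCGG was found in 4 of the 7 promoters, starting at -49 from the start in Il21r and at -76 in Il4ra, against 35.7% of all promoters. Ifngr1 had 2 matches on the reverse strand at -99 and -88, and Ifngr2 had 4 at -57, -51, -30 and -25. The interferon gamma-activated site TTCNNNGAA was found in 1 of the 7, that of Il7r (TTCAGGGAA at -142), against 8.3% of all promoters. The end of the Il7r window was found in 0 of the 4 GENCODE transcripts of Il7r, so -142 rests on the RefSeq start alone. The STAT6-type site was found in 1 of the 7, that of Ifngr2 (TTCCCGGGAA at -91), against 6.95%. The letters of the AP-1 site TGANTCA (7.81% of all promoters), the PU.1 site GAGGAAGT (3.2%) and the interferon-stimulated response element, GAAA and GAAA with 2 bases between them (3.44%), were in 0 of the 7 windows. A match is a description of these letters, and binding was not measured.

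Total counts were 14935114 to 16794810 per library. Gsdmd was measured at 63.5 to 95.6 CPM (counts scaled to library size with TMM factors) in WT and at 14.4 to 18.2 CPM in Gsdmd-/-, which is -2.22 on the log2 scale (SE 0.14, n = 4 per genotype, adjusted p = 4.67e-05 by the edgeR quasi-likelihood test; exact permutation p = 0.0286, two-sided, the smallest that 4 against 4 can give). Gsdmd was thus lower in each library labelled Gsdmd-/-. Of the 8 libraries, WT 2 and WT 3 stood apart on the first principal component (43.6% of the variance), at 45.4 and 38.8 against -25.9 to -7.19 for the other libraries, and results that rest on them are also given without both. The 8 macrophage markers were all measured, with summed levels of 15340 and 17240 CPM in WT 2 and WT 3, the lowest of the 8 libraries, and of 19410 to 23460 CPM in the others. That sum rested mostly on Lyz2, at 13000 and 14830 CPM in WT 2 and WT 3 against 16760 to 20760 CPM. Of the other macrophage markers, Cd68 was at 414 and 424 CPM in WT 2 and WT 3 against 621 to 849 CPM elsewhere. Fcgr1 was at 7.09 and 6.66 CPM against 17.8 to 40.7 CPM. By contrast, Adgre1 (319 and 326 CPM against 242 to 291 CPM) and Mertk (250 and 212 CPM against 101 to 142 CPM) were highest in WT 2 and WT 3. The summed dendritic cell markers were at 51.9 and 47.7 CPM in WT 2 and WT 3, at 19.8 and 22.2 CPM in WT 1 and WT 4 and at 16.7 to 20.4 CPM in Gsdmd-/- (Siglech at 0), and the B cell markers at 9.04 and 9.1 CPM in WT 2 and WT 3 against 0.464 to 1.6 CPM in the other 6. The mast cell and basophil markers were at 16.4 and 16.3 CPM in WT 2 and WT 3, and at 53.6 to 81.01 CPM elsewhere. Each of these 3 sums rested mostly on 1 gene, Clec9a (49.1 and 45.3 CPM in WT 2 and WT 3 against 14.5 to 18.3 CPM), Ighm (8.98 and 8.73 against 0.464 to 1.54 CPM) and Kit (11.4 and 10.3 against 46.0 to 71.03 CPM). The other dendritic cell and B cell markers were at most 3.1 CPM in any library and did not share the pattern (Zbtb46, Xcr1, Ccr7 and Cd79b were highest in WT 4, and Flt3 was at 0 in all libraries but 1). Of the other mast cell markers, Gata2 was lowest in WT 2 and WT 3 (4.03 and 5.8 CPM against 6.69 to 8.64 CPM), and Cpa3, Mcpt8, Ms4a2 and Prss34 were at most 1.58 CPM. T and NK cell markers, which mark the cells best known for Il21r, Il2rg and Il7r, summed to 1.95 to 4.03 CPM in WT and 1.4 to 2.19 CPM in Gsdmd-/-, with Cd3d and Ncr1 among the markers at 0. Neutrophil markers summed to 4.44 to 6.66 and 5.87 to 6.91 CPM (Ly6g at 0), and stromal markers to 4.93 to 8.58 and 4.03 to 6.24 CPM, in the same order. A count of 0 allows up to 3 counts, or 0.177 to 0.199 CPM, for counting error only.

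Il21r, the private chain of the IL-21 receptor, had the lowest Gsdmd-/- level relative to WT among the members over all 8 libraries, although Il12rb1 lay lower without WT 3 and without WT 2 and WT 3. Il21r read 69.1, 66.3, 70.7 and 104 CPM in WT 1 to 4, and 37.3, 30.6, 39.4 and 43.6 CPM in Gsdmd-/- 1 to 4. Every Gsdmd-/- library was below every WT library, and WT 4 was well above the other 3 WT libraries. The means were 77.5 ± 17.8 and 37.7 ± 5.43 CPM (SD, n = 4), so that Gsdmd-/- stood at 48.6% of WT, with a log2 fold change of -1.04 (SE 0.16). The log2 fold change was -1.20 without WT 2 and WT 3 and -0.86 without WT 4, which were its extremes over 16 alternatives. The counts behind it were 1085 to 1711 in WT and 517 to 657 in Gsdmd-/-. In bulk RNA, fewer cells that express a gene and less RNA per cell cannot be told apart, which holds for all values here. The summed T and NK cell markers were at most 4.03 CPM in any library.

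Il2rg, whose product is the shared gamma chain of the receptors for IL-2, IL-4, IL-7, IL-9, IL-15 and IL-21, varied among WT libraries more than between genotypes. Il2rg read 78.6, 49.6, 53.9 and 105 CPM in WT 1 to 4 and 67.8, 61.8, 85.0 and 72.0 CPM in Gsdmd-/- 1 to 4. The genotypes overlapped, with WT 2 and WT 3 the lowest of the 8 libraries. The means were 71.7 ± 25.5 and 71.6 ± 9.86 CPM (SD, n = 4), at a log2 fold change of -0.0024 (SE 0.22). It was above 0 in 8 of 16 alternatives, at -0.36 without WT 2 and WT 3 and at 0.24 without WT 4. Of its exon bases, 30.5% are shared with the same-strand annotation Gm20489, which was at 0 counts in every library.

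Il4ra, a chain of the receptors for IL-4 and IL-13, was lower in Gsdmd-/- macrophages by a small and even step. Il4ra read 194, 200.1, 186 and 190.3 CPM in WT 1 to 4 and 158, 159, 146 and 157 CPM in Gsdmd-/- 1 to 4. The groups did not overlap, and the spread within each was narrow. Its means were 193 ± 5.86 and 155 ± 5.94 CPM (SD, n = 4), or 80.4% of WT, at a log2 fold change of -0.31 (SE 0.071) that stayed between -0.33 and -0.29 over the alternatives. An antisense annotation, Gm44876, covers 9.51% of its exon bases and had 4 counts in all, and without a stated strand setting reads of the 2 cannot be told apart, as for Il6ra and Gm42809 (2.8% of exon bases, 1 count). Il7r, which with Il2rg forms the IL-7 receptor, read 673, 720.3, 697 and 614 CPM in WT 1 to 4 and 707, 778, 729 and 731 CPM in Gsdmd-/- 1 to 4. Its groups overlapped, and its log2 fold change was 0.12 (SE 0.082), or 0.19 without WT 2 and WT 3.

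**Figure D1:**
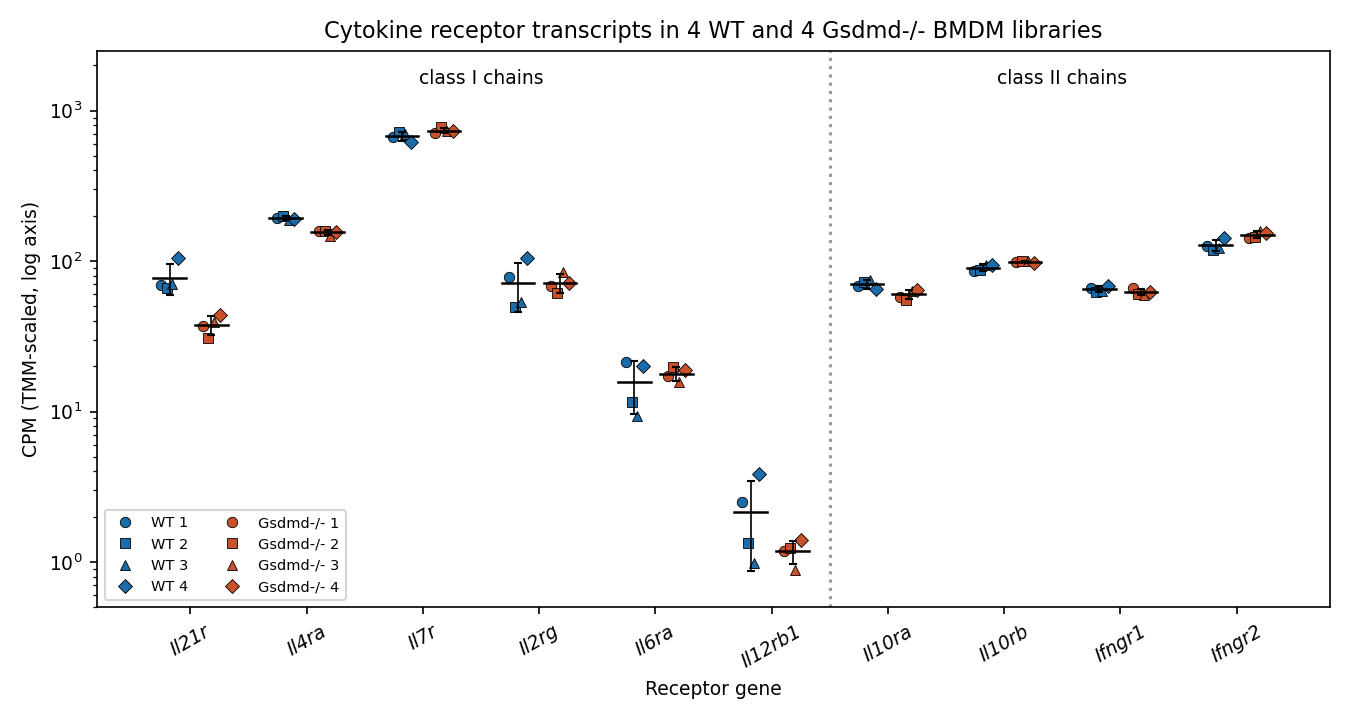
CPM of the 10 genes in each library, on a log axis, with WT and Gsdmd-/- libraries as points, lines at the mean and bars of 1 SD (n = 4). Il21r, Il4ra and Il10ra show no overlap with Gsdmd-/- lower, and Il10rb none with Gsdmd-/- higher, while WT 2 and WT 3 are the lowest WT libraries in Il2rg, Il6ra and Il12rb1.

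The chains of the IL-6 and IL-12 receptors were the least abundant members. Il6ra, the IL-6-binding chain, read 21.4, 11.5, 9.41 and 20.1 CPM in WT 1 to 4 and 17.1, 19.7, 15.7 and 19.0 CPM in Gsdmd-/- 1 to 4. The Gsdmd-/- libraries lay between the 2 low and the 2 high WT libraries, and its log2 fold change of 0.19 (SE 0.24) turned to -0.22 without WT 2 and WT 3. Il12rb1, the chain that the IL-12 and IL-23 receptors share, read 2.5, 1.34, 0.977 and 3.83 CPM in WT 1 to 4 and 1.19, 1.24, 0.888 and 1.39 CPM in Gsdmd-/- 1 to 4. It rested on 16 to 63 counts in WT and 14 to 21 counts in Gsdmd-/- libraries, the groups overlapped, and its log2 fold change of -0.87 (SE 0.41) was -1.42 without WT 2 and WT 3 and -0.44 without WT 4.

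Among the class II chains, the private and the shared chain of the IL-10 receptor had log2 fold changes of opposite sign. Il10ra, the IL-10-binding chain, read 68.3, 72.3, 75.3 and 64.8 CPM in WT 1 to 4 and 57.9, 55.0, 63.2 and 63.8 CPM in Gsdmd-/- 1 to 4. The groups did not overlap, but WT 4 and Gsdmd-/- 4 were close together, and the log2 fold change was -0.23 (SE 0.085), or 85.5% of WT, and -0.15 without WT 2 and WT 3. Il10rb, which the receptors for IL-10, IL-22 and type III interferons share, read 86.3, 86.8, 94.1 and 94.8 CPM in WT 1 to 4 and 98.5, 100.4, 99.5 and 97.7 CPM in Gsdmd-/- 1 to 4. Every Gsdmd-/- library was above every WT library, by a log2 fold change of 0.13 (SE 0.071), with the same value without WT 2 and WT 3. Of the exon bases of Il10rb, 14.9% are shared with the same-strand annotation Gm21970, which was at 0 counts in every library.

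The chains of the interferon gamma receptor overlapped between genotypes, with Ifngr2 at the higher level in Gsdmd-/- macrophages on average. Ifngr1, which binds interferon gamma, read 66.5, 62.3, 63.4 and 68.8 CPM in WT 1 to 4 and 66.2, 60.9, 59.2 and 61.8 CPM in Gsdmd-/- 1 to 4. Its groups overlapped, with a log2 fold change of -0.07 (SE 0.075), or -0.13 without WT 2 and WT 3. Ifngr2, the chain that carries JAK2, read 126, 118, 123 and 142 CPM in WT 1 to 4 and 142, 144, 160 and 154 CPM in Gsdmd-/- 1 to 4. Its groups overlapped through WT 4 and Gsdmd-/- 1, with a log2 fold change of 0.24 (SE 0.084), or 0.16 without WT 2 and WT 3.

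Of the 10 genes, 1 (Il21r) was past an adjusted p of 0.05 and lower in Gsdmd-/-, where 0.209% of all genes tested were, and 0 were higher, where 0.139% were. At the looser cutoff of an unadjusted p under 0.05 and a log2 fold change beyond 0.5 either way, the counts were again 1 lower (3.28% of all genes) and 0 higher (1.54%). By non-overlap of the libraries, 3 were lower (4.12% of all genes) and 1 was higher (3.48%), and 6 overlapped. The count of 1 at the adjusted p became 0 without WT 3 or without any 1 of the Gsdmd-/- libraries. Since this contrast chose the genes, nothing is read from these counts. The median log2 fold change was -0.04 over the 10 genes, with 4 above 0 and 6 below, and -0.0068 over all 12911.

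WT 2 and WT 3 were both below WT 1 and WT 4 in 5 of the 10 genes (Il2rg, Il6ra, Il12rb1, Ifngr1 and Ifngr2), a pattern found in 28.7% of all genes tested. Both were above WT 1 and WT 4 in 2 (Il7r and Il10ra), against 29.4%. The highest WT library was 2.11 times the lowest in Il2rg, 2.28 times in Il6ra and 3.92 times in Il12rb1, and 1.07 times in Il4ra. The SD of log2 CPM was 0.5 in WT against 0.194 in Gsdmd-/- for Il2rg, 0.585 against 0.148 for Il6ra and 0.83 against 0.248 for Il12rb1, and its median over all genes tested was 0.236 and 0.158. WT 2 and WT 3, the lowest WT libraries for these 3 genes, had the highest Clec9a and Ighm and the lowest Kit and Gata2. Their summed macrophage markers, mostly Lyz2, were also the lowest, but Adgre1 and Mertk of that list were the highest. The macrophage, dendritic cell and B cell markers did not move as lists, and the part of other cell types in these values was not tested.

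**Figure D2:**
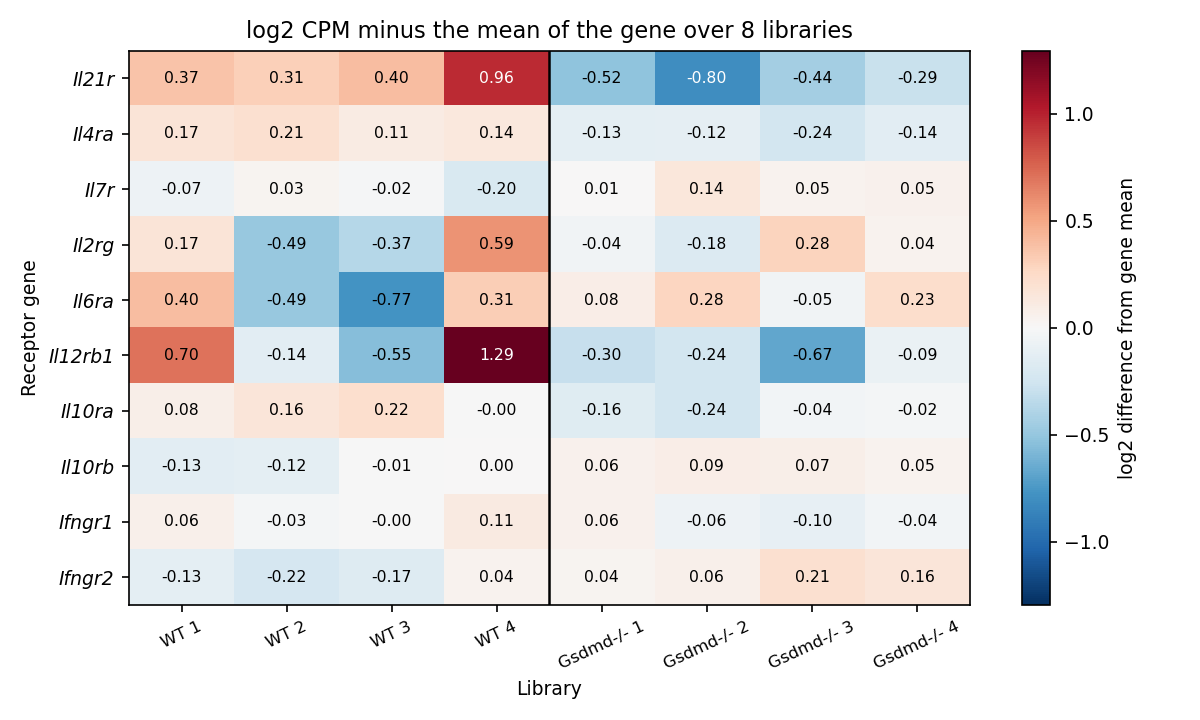
Log2 CPM of each of the 10 genes (rows) in each library (columns) minus the mean of that gene over the 8 libraries, as colour and printed value in log2 units. Il21r is above its mean in all WT and below it in all Gsdmd-/- libraries, and Il2rg, Il6ra and Il12rb1 are below theirs in WT 2 and WT 3.

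Per kilobase of merged exon, which allows genes to be compared, Il7r had the highest level, at 151 ± 10.3 CPM per kilobase (mean and SD over the 8 libraries). It was apart from the next gene, as no library overlapped. Ifngr2 (36.8 ± 3.95), Il2rg (30.03 ± 7.5), Il4ra (28.98 ± 3.48), Il10rb (24.9 ± 1.45), Ifngr1 (22.4 ± 1.14), Il10ra (18.6 ± 1.95) and Il21r (17.3 ± 7.38) followed on the same scale, and in this order no gene was apart from its neighbour. These means pool both genotypes. Il21r was at 23.3 ± 5.36 CPM per kilobase in WT (SD, n = 4), place 6 of the 10, and at 11.3 ± 1.63 in Gsdmd-/-, place 8. Il6ra (1.94 ± 0.499) was apart from Il21r, and Il12rb1 (0.407 ± 0.245) was apart from Il6ra. Of the genes tested, 97.8% had a lower level than Il7r, 80.4% than Il21r (over all 8 libraries), 30.1% than Il6ra and 8.34% than Il12rb1. With the length of the longest transcript in place of merged exons, Il2rg came before Ifngr2, Il10rb before Il4ra and Il21r before Il10ra, and Il6ra and Il12rb1 overlapped.

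**Figure D3:**
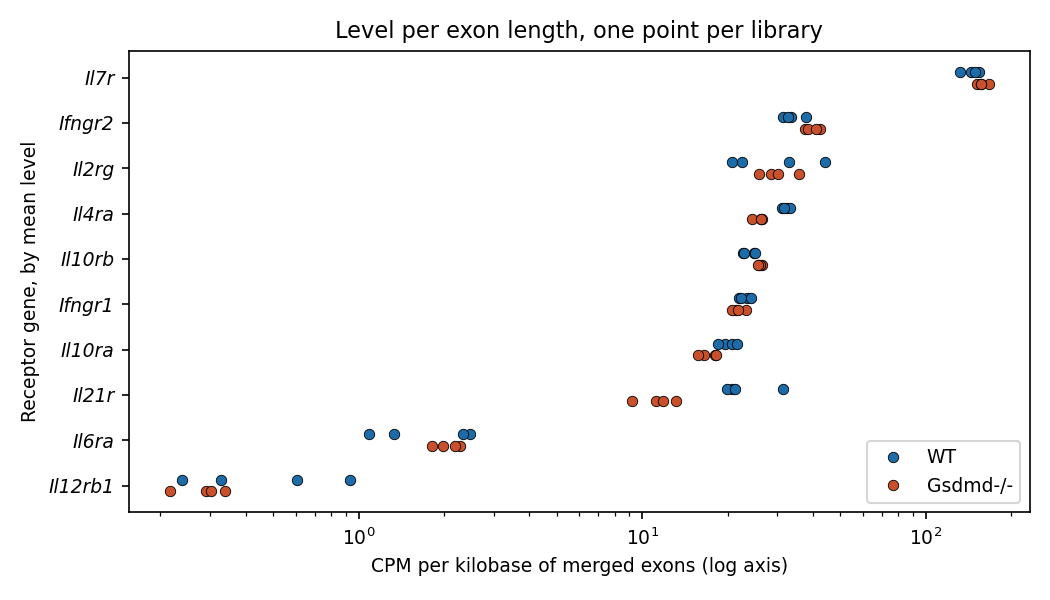
Level of the 10 genes in CPM per kilobase of merged exon, on a log axis, in order of their mean over 8 libraries, with WT and Gsdmd-/- libraries as points. Il7r stands above, and Il6ra and Il12rb1 stand below, the other 7 genes.

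Ratios between chains of 1 receptor, on the same scale per length, put these levels side by side. The ratio of Il21r to Il2rg lay between 0.631 and 0.960 in WT and between 0.333 and 0.435 in Gsdmd-/- libraries, without overlap. Il4ra to Il2rg (0.722 to 1.6 in WT, 0.684 to 1.03 in Gsdmd-/-) and Il7r to Il2rg (3.0 to 7.43 in WT, 4.39 to 6.45 in Gsdmd-/-) overlapped. Il4ra to Il13ra1, the partner chain in the type II IL-4 receptor, was 1.89 to 2.08 in WT and 1.56 to 1.65 in Gsdmd-/-, without overlap. Il10ra to Il10rb was 0.743 to 0.908 in WT and 0.597 to 0.711 in Gsdmd-/-, and Ifngr1 to Ifngr2 was 0.640 to 0.696 in WT and 0.491 to 0.618 in Gsdmd-/-, both without overlap. The ratio of Il6st, the signal chain of the IL-6 receptor, to Il6ra was 6.69 to 22.5 in WT and 8.85 to 10.04 in Gsdmd-/-, with WT 2 and WT 3 at the top. That of Il12rb2 to Il12rb1 was 1.25 to 3.65 in WT and 5.14 to 7.27 in Gsdmd-/-, but Il12rb1 rested on few counts. These ratios use the levels that chose the genes and were not tested.

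Il21r at chr7:125603429-125633570 (GRCm38, plus strand, ENSMUSG00000030745) and Il4ra at chr7:125552120-125579474 (plus strand, ENSMUSG00000030748) are neighbours, 24.0 kb apart. Within 200 kb of either, 8 other genes are annotated, of which 4 were tested. Kdm8 (-0.10), Nsmce1 (0.26), Gtf3c1 (-0.11) and D430042O09Rik (-0.34) had log2 fold changes that did not pass an adjusted p of 0.05 (lowest 0.603), and 0 of 4 were called. Il10rb at chr16:91406164-91425834 (plus strand) and Ifngr2 at chr16:91547072-91565623 (plus strand) are 121 kb apart, with Ifnar1 between them and Ifnar2 upstream. Here 10 of 26 other genes were tested and 0 were called, at log2 fold changes of -0.26 to 0.08 (lowest adjusted p 0.515). The remaining members lie elsewhere on the X chromosome (Il2rg) and on chromosomes 15 (Il7r), 9 (Il10ra), 3 (Il6ra), 8 (Il12rb1) and 10 (Ifngr1).

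**Figure D4:**
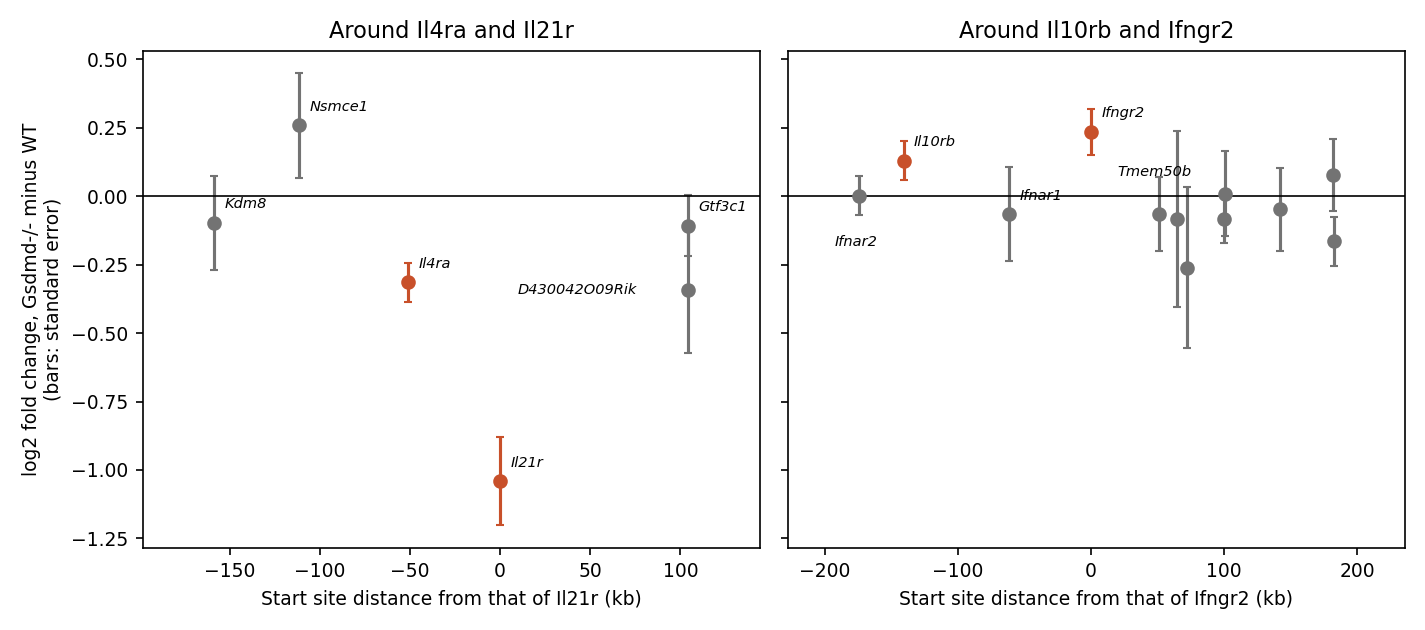
Log2 fold change (Gsdmd-/- minus WT, with standard errors) of genes around the pair Il4ra and Il21r (left) and the pair Il10rb and Ifngr2 (right), against start site distance in kb. The members are in red and other tested genes in grey, and Il21r lies at -1.04 where the other genes around it lie between -0.34 and 0.26.

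The tested genes whose profile over the 8 libraries was most like that of Il21r were found by the root mean square difference of log2 CPM, each centred on its own mean, which was 0.601 for the median gene. Slco4a1, an organic anion transporter, came first (0.13), at 49.2 to 75.9 CPM in WT and 21.5 to 35.2 CPM in Gsdmd-/-. Gpr55, a receptor for lysophosphatidylinositol, followed (0.152), at no more than 1.16 CPM in any library. Hr (0.179), Ahrr (0.18), which encodes the repressor of the aryl hydrocarbon receptor, and Jag1 (0.187), a Notch ligand, came next. Ahrr was at 31.6 to 38.5 CPM in WT and 13.5 to 17.9 CPM in Gsdmd-/-, and Jag1 at 13.8 to 18.9 and 7.51 to 11.5 CPM. Of the other members, Il4ra (0.432), Il10ra (0.468) and Il12rb1 (0.473) were nearest to Il21r, and the members closest to one another were Il10rb and Ifngr2 (0.093). These likenesses are descriptions over 8 libraries, and the contrast between genotypes is part of them.

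The other genes of these pathways were not in the rule that chose the members, and their differences were tested, although their lists too were written with earlier results of these data known. Of 124 genes in 8 lists, 84 were tested. At an adjusted p under 0.05, 1 was higher (Pim1) in Gsdmd-/- macrophages, where 0.139% of all genes were, and 2 were lower (Ciita and Irf1), where 0.209% were. At the looser cutoff 3 were higher (Il4, Osm and Pim1), where 1.54% of all genes were, and 4 were lower (Stat2, Bcl6, Irf1 and Ciita), where 3.28% were. The median log2 fold change of the 84 was -0.08, with 25 above 0 and 59 below, beside -0.0068 over all genes.

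Among the receptor chains, 0 of 18 class I chains and 0 of 4 class II chains tested passed the adjusted p in edgeR, limma voom or DESeq2, and 1 of each (Csf2ra at -0.18 and Il20rb at -0.35 on the log2 scale) was lower at an unadjusted p under 0.05, where 7.30% of all genes were. Some of the chains that can form receptors with a member had log2 fold changes of -0.02 (Il13ra1), -0.19 (Il6st), 0.43 (Il12rb2) and 0.04 (Il15ra). The chains of the type I interferon receptor were at -0.07 (Ifnar1) and 0.00 (Ifnar2). Without WT 2 and WT 3, Il6st was at 0.13, Il12rb2 at 0.06, Il15ra at -0.09 and Ifnar1 at -0.38. Il2rb, the beta chain shared by the IL-2 and IL-15 receptors, was not tested, at 1 to 3 counts in WT and 0 to 1 counts in Gsdmd-/- libraries, and Il23r was at 0 counts in all 8. The median over the 18 class I chains was -0.03.

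Of 23 ligand genes, 5 were tested, and 0 passed the adjusted p in edgeR, limma voom or DESeq2, while 2 were higher at an unadjusted p under 0.05, where 4.74% of all genes were. Osm, encoding oncostatin M, read 14.1, 6.42, 7.21 and 11.2 CPM in WT 1 to 4 and 22.3, 17.1, 15.6 and 13.9 CPM in Gsdmd-/- 1 to 4, a log2 fold change of 0.83 (SE 0.25, adjusted p = 0.235). Its groups touched at WT 1 and Gsdmd-/- 4, and without WT 2 and WT 3 it was at 0.45, within the looser cutoff's limit. Il4 was at 76 counts in all WT libraries together and 122 counts in all Gsdmd-/- libraries (log2 fold change 0.69, SE 0.28, adjusted p = 0.364). Il7, at 0.426 to 1.71 CPM in WT and 0.946 to 1.52 CPM in Gsdmd-/-, had a log2 fold change of 0.19 that was 1.11 without WT 2 and WT 3, past the looser cutoff, and -0.07 without WT 4. Il21, Il10 and Ifng had 0 counts in every library, and Il6 had 1 count in WT and 3 in Gsdmd-/-.

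The 10 JAKs and STATs tested had log2 fold changes below 0 and a median of -0.09, but without WT 2 and WT 3 Jak1 was at 0.15 and Jak3 at 0.13, and Stat6 was above 0 with upper-quartile factors and without a filter. At the adjusted p, 0 passed in edgeR and limma voom and 1 (Stat2) in DESeq2, where 292 of all 12911 genes passed. At an unadjusted p under 0.05, 2 (Stat2 and Tyk2) were lower (7.30% of all genes). Stat2, which acts downstream of type I interferon, read 44.1, 52.5, 47.8 and 41.7 CPM in WT 1 to 4 and 35.7, 34.9, 23.2 and 26.7 CPM in Gsdmd-/- 1 to 4. The groups did not overlap, and its log2 fold change was -0.63 (SE 0.15, adjusted p = 0.124), or -0.51 without WT 2 and WT 3. The kinases stood at -0.07 (Jak1), -0.06 (Jak2), -0.23 (Jak3) and -0.22 (Tyk2), and STATs used by the members at -0.08 (Stat3), -0.11 (Stat5a), -0.11 (Stat5b) and -0.01 (Stat6). Of 17 feedback regulators, 0 passed the adjusted p in edgeR and limma voom and 1 (Ptpn6, -0.45, adjusted p = 0.0564 in edgeR) did in DESeq2, with 1 higher (Socs1, against 4.74% of all genes) and 2 lower (Ptpn6 and Ptpn11, against 7.30%) at an unadjusted p under 0.05.

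Among genes known as STAT targets, calls went in both directions. Of 9 STAT6 target genes tested, 0 passed the adjusted p in edgeR, limma voom or DESeq2 and 0 an unadjusted p under 0.05, with a median log2 fold change of -0.34.

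That count turned on WT 2 and WT 3. Without them, only WT 1 and WT 4 were left as WT libraries. In that fit 2 of the 9 STAT6 targets, Mgl2 and Pdcd1lg2, fell at an adjusted p under 0.05, where 0.813% of all genes did. The median over the 9 was -0.72. The p of that fit does not measure the spread over all 4 WT libraries. Mgl2, a C-type lectin gene of alternatively activated macrophages and of dendritic cells, read 76.9, 21.5, 25.5 and 80.2 CPM in WT 1 to 4 and 31.9, 29.7, 42.5 and 41.1 CPM in Gsdmd-/- 1 to 4. Pdcd1lg2, which encodes the checkpoint ligand PD-L2, read 23.1, 8.68, 10.3 and 30.3 CPM in WT 1 to 4 and 10.6, 9.17, 11.3 and 12.3 CPM in Gsdmd-/- 1 to 4. WT 2 and WT 3 were at or below the Gsdmd-/- level of both genes and WT 1 and WT 4 well above it. Their log2 fold changes were -1.12 (adjusted p = 0.00858) and -1.30 (adjusted p = 0.00496) without WT 2 and WT 3, and -0.49 (adjusted p = 0.675) and -0.74 (adjusted p = 0.449) with them. Chil3, Ccl22 and Clec10a of the same list were lower at the looser cutoff without WT 2 and WT 3 (5 of 9 in all, against 3.15% of all genes). In these 2 libraries Lyz2, the bulk of the summed macrophage markers, and Kit were lowest, and Adgre1, Mertk, Clec9a and Ighm were highest. The part of such marker differences in the STAT6 target values was not tested.

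Of 9 STAT3 targets, Pim1 rose and 0 fell at an adjusted p under 0.05 in edgeR and limma voom. Of all genes, 0.139% rose and 0.209% fell in edgeR. In DESeq2, which called 292 of all 12911 genes, 2 (Pim1 higher, Bcl6 lower) passed. Pim1, a serine/threonine kinase gene, read 236, 203, 210.4 and 218 CPM in WT 1 to 4 and 335, 304, 308 and 302 CPM in Gsdmd-/- 1 to 4. The groups did not overlap, and the log2 fold change was 0.53 (SE 0.08, adjusted p = 0.0302).
Bcl6, a transcriptional repressor gene of the same list, read 9.07, 12.0, 9.71 and 6.03 CPM in WT 1 to 4 and 4.56, 5.26, 3.93 and 4.45 CPM in Gsdmd-/- 1 to 4, a log2 fold change of -1.01 (SE 0.21, adjusted p = 0.0861 in edgeR). The groups did not overlap, and its adjusted p was above 0.05 in 13 of 16 alternatives (up to 0.318) and below it in DESeq2 (0.00162), without a filter (0.0285) and without WT 4 (0.0141). Without WT 2 and WT 3 its log2 fold change was -0.73 (adjusted p = 0.147).

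Among the remaining pathway genes, Ciita and Irf1 fell at an adjusted p under 0.05, as did 0.209% of all genes. Ciita, which encodes the class II transactivator, read 56.4, 53.95, 47.9 and 46.6 CPM in WT 1 to 4 and 23.3, 21.7, 26.1 and 35.4 CPM in Gsdmd-/- 1 to 4, at a log2 fold change of -0.95 (SE 0.15, adjusted p = 0.0339). Irf1, an interferon regulatory factor gene, read 31.7, 38.9, 44.8 and 44.3 CPM in WT 1 to 4 and 21.1, 21, 26.6 and 25.2 CPM in Gsdmd-/- 1 to 4, at -0.77 (SE 0.13, adjusted p = 0.0468). Neither gene overlapped between groups. Dropping 1 library in turn raised the adjusted p above 0.05 in 6 of 8 cases for Pim1 (0.0299 to 0.153) and Ciita (0.00649 to 0.164) and in 7 of 8 for Irf1 (0.0237 to 0.233). The adjusted p stayed under 0.05 without WT 1 or WT 4 for Pim1, without WT 4 or Gsdmd-/- 4 for Ciita and without WT 1 for Irf1. Without WT 2 and WT 3 the adjusted p was 0.0588 for Pim1, 0.0411 for Ciita and 0.0695 for Irf1, and for Irf1 it was also above 0.05 with limma voom (0.0546) and upper-quartile factors (0.0562). Also without WT 2 and WT 3, Fcgr1, a high-affinity Fc receptor gene that is also among the macrophage markers above, was lower (-0.85, adjusted p = 0.032), and Tnip3 (-1.17), Il2ra (-0.71) and Csf3r (-0.54) were lower at the looser cutoff.

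**Figure D5:**
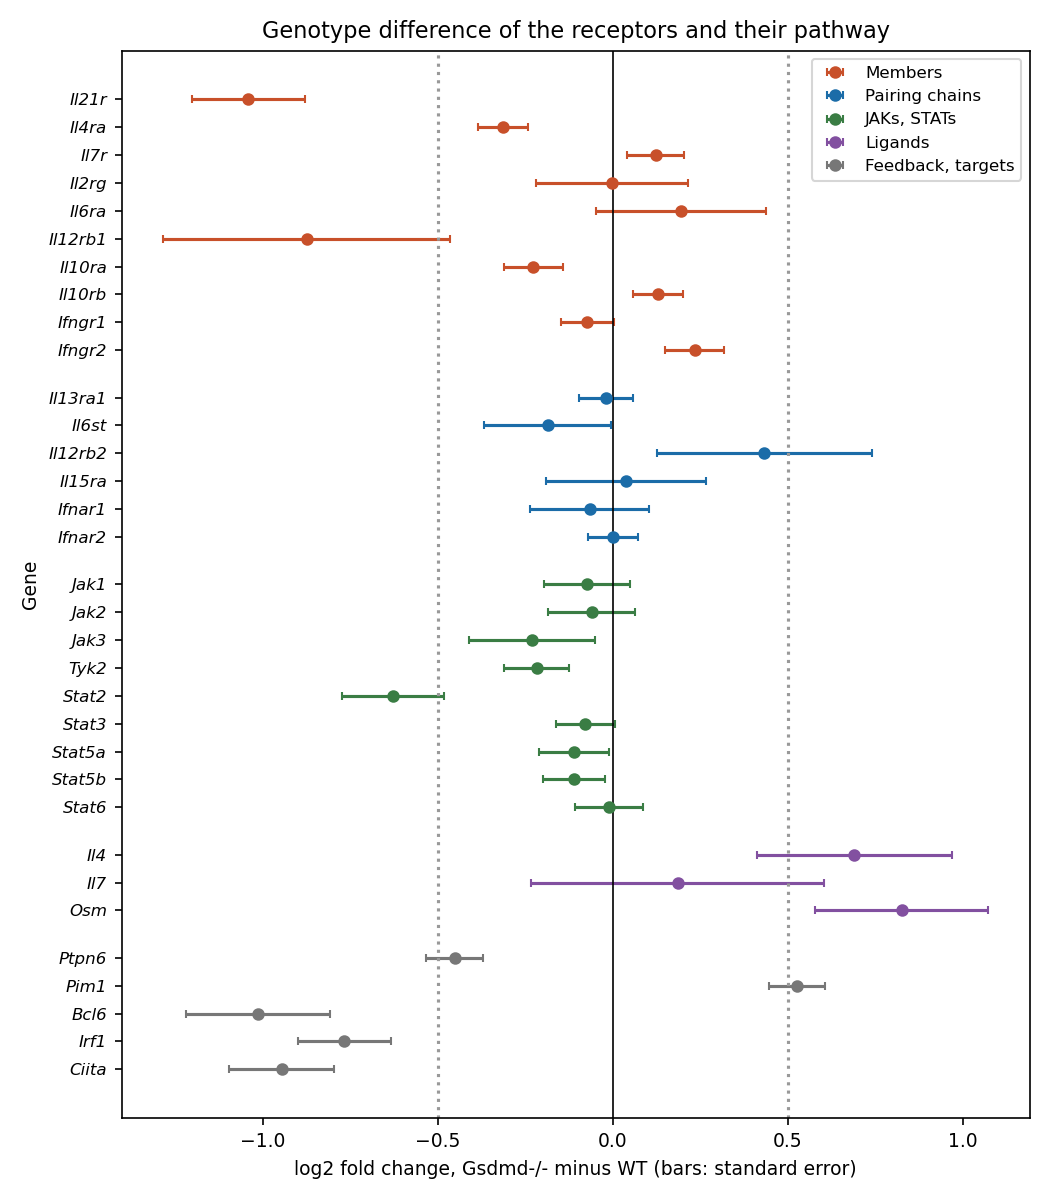
Log2 fold change (Gsdmd-/- minus WT) with standard error for the 10 receptor genes and for some of the pathway genes named in the text, from the fit over all genes, with dotted lines at 0.5 either way. Il21r at -1.04 lies farthest below 0 among the members in this fit, and Pim1 at 0.53, Irf1 at -0.77 and Ciita at -0.95 passed an adjusted p of 0.05.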

How the data were processed

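The 10 receptor genes and the gene lists were chosen with earlier results of these data known. Bulk RNA-seq libraries (TruSeq, total RNA) were made from WT and Gsdmd-/- BMDMs, and the authors deposited 1 table of raw read counts per gene, not normalized, in which every value was checked to be whole. The build was mm10 per the submitters' processing notes, and the aligner, the counter and strand setting are not given in the sources used here. Positions and exon lengths came from GENCODE M21 (54495 of 54532 genes matched), and promoters from RefSeq (GRCm38.p6).

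Counts were filtered with filterByExpr and scaled by TMM, and genotypes were compared with the edgeR 4.0.16 quasi-likelihood test (R 4.3.3, two-sided, all 8 libraries, genotype as the only term), with Benjamini-Hochberg adjustment over 12911 genes. Log2 CPM used a prior count of 2. Members were fitted with all genes and counted at each threshold, but no p of a member is printed. Named genes were the 10 members, pathway genes past either threshold, fixed partner chains, kinases and ligands, and the 5 genes nearest to Il21r; genes named only without WT 2 and WT 3 or for an unadjusted p were chosen after their values were seen. Alternatives were limma voom (limma 3.58.1), DESeq2 1.42.0, RLE and upper-quartile factors, no filter, a minimum of 10 counts per library, a replicate block, a fold limit of 1, and libraries left out. The scripts were tested on simulated data. Some genes of the lists, and 1 list as such, are not reported here.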

Additional observations from a re-analysis of the deposited data

Results flagged for a closer look

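In 36 groups of 4 libraries examined, 2 held a library far from the other 3. Chance alone gives about 1 in 20, so this number is near what chance gives. Il21r was at 104 CPM in WT 4 and at 66.3 to 70.7 CPM in the other WT libraries. Pim1 was at 335 CPM in Gsdmd-/- 1 and at 302 to 308 CPM in the other Gsdmd-/- libraries.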

How the results depend on the processing

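The members' log2 fold changes kept their sign in 16 of 16 alternatives, other than Il2rg (8 turned) and Il6ra (1 turned, without WT 2 and WT 3). Over all genes tested, 18 higher and 27 lower calls at the adjusted p became 105 and 187 with DESeq2, 44 and 65 without a filter, and 53 and 108 without WT 2 and WT 3. With 1 library dropped they lay between 8 and 28 and between 5 and 56, over 1.5 times more without WT 4 (28 and 56) and over 1.5 times fewer without any other library than WT 1. At the looser cutoff, 199 and 424 became 421 and 783 without a filter, 59 and 140 at a log2 limit of 1, and 405 higher without WT 2 and WT 3 (155 to 318 and 297 to 704 with 1 library dropped, both highest without WT 4). Members lower numbered 2 in place of 1 with DESeq2 at the adjusted p (Il4ra added) and at the looser cutoff (Il12rb1 added), and at the latter without a filter and without WT 2 and WT 3 (Il12rb1). With 1 library dropped they numbered 0 to 1 (0 without WT 3 or any Gsdmd-/- library) and 1 to 2 (2 without WT 2 or WT 3). Pathway genes higher at the adjusted p numbered 0 in place of 1 without WT 2 and WT 3 (0 to 1 with 1 library dropped), and those lower, 2 here, 1 with limma voom or upper-quartile factors, 5 with DESeq2 and 4 without WT 2 and WT 3 (0 to 2). At the looser cutoff, 3 higher became 0 at a log2 limit of 1 (1 to 3, with 1 without Gsdmd-/- 1), and 4 lower became 7 without a filter, 13 without WT 2 and WT 3 and 1 at a log2 limit of 1 (4 to 8, with 8 without WT 2). The cause was not tested.

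The replicate numbers did not pair the libraries (correlations of same-numbered deviations 0.0268, 0.182, 0.0412 and -0.201), and not every library correlated best with its own number. A replicate block gave 9 higher and 16 lower genes overall at the adjusted p, and 0 higher and 1 lower among pathway genes, with an adjusted p of 0.0835 for Pim1 and for Ciita and of 0.0407 for Irf1.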
